A study of Mus musculus with 6 samples.

Results

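The genes of the Wnt signaling pathway were compared between WT and *Bdh2*-knockout ASCs. Members were the rows of the deposited count table whose gene name was on a list of 55 Wnt genes, out of 54715 genes in the table, and all 55 were found. They fell into 5 classes: 16 ligands and secretion factors (14 Wnt ligands with *Porcn* and *Wls*), 15 receptors, 8 secreted antagonists, 9 intracellular components, and 7 targets and feedback regulators. Advanced embryonic stem cells (ASCs) are mouse embryonic stem cells held in a pluripotent state between the naïve and the primed one. RNA-Seq was done on 3 libraries of WT ASCs and 3 of *Bdh2*-/- ASCs, all derived from a 129/sv female and a GOF/GFP male, in which *Oct4* regulatory sequence drives GFP. Cells of both genotypes were grown on fibronectin with activin A, BMP4, leukemia inhibitory factor and CHIR99021, a GSK3 inhibitor, so every level below was measured with GSK3 inhibited. The knockout was made with CRISPR/Cas9, which gave several knockout ASC lines, and the study selected 1 bi-allelic deletion clone of ASCs for further work. Its Western blot of DNA methyltransferases shows more than 1 knockout ASC line. The labels name neither the clone nor separate cultures, so p-values measure only the spread between these libraries, which may be technical, and genotype and clone cannot be told apart.

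Wnt proteins are lipid-modified signals that bind Frizzled receptors with an LRP5 or LRP6 co-receptor. Without a ligand, beta-catenin is bound by AXIN and APC, phosphorylated by casein kinase 1 and GSK3, and degraded; with a ligand, or when GSK3 is blocked by a drug, it accumulates and acts in the nucleus with the TCF/LEF transcription factors. In mouse pluripotent cells the pathway is known for supporting self-renewal, where TCF7L1 acts mainly as a repressor, and for inducing the primitive streak in the embryo.

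TCF/LEF proteins bind the letters CTTTGAT, and windows of promoters that hold them show which of these genes carry such letters beside their start. Promoters of 37 of the 55 members (47 promoters) were found in RefSeq for GRCm38.p6, each running from 250 bases before to 50 bases after a start, and were searched on both strands. CTTTGAT was present in 3 of these 37 genes (8.11%), *Sp5*, *Wnt11* and *Wnt5b*, and in 4.29% of 27025 genes or 3.73% of 32851 promoters of all genes. With the variant CTTTGAA, the further variant CTTTGTA and also the variant CTTTGTT included, 9 member genes (24.3%) and 18.9% of all genes had a match. The windows below read 5′ to 3′ on the strand of the gene, with the match in capitals; in *Wnt11* and *Lef1* the capitals show the match as it stands on the opposite strand. They lie at chr2:70474794-70474853 (plus strand, match starting 104 bases before the start of *Sp5*), chr7:98835036-98835095 (plus, 51 bases before *Wnt11*), chr6:119449423-119449482 (minus, 71 bases before a start of *Wnt5b*) and chr3:131156122-131156181 (plus, 147 bases before a start of *Lef1*). The starts of *Wnt5b* and *Lef1* lie inside the annotated genes. *Lef1* holds the variant CTTTGTA and is shown as an example of the wider match.
Sp5: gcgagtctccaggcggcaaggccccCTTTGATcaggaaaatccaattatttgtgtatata
Wnt11: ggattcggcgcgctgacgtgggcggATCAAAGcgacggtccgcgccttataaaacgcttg
Wnt5b: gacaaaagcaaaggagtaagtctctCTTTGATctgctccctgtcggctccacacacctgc
Lef1: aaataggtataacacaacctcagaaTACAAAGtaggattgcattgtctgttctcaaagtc
Of the 9 genes with any of these matches, *Sp5*, *Wnt11*, *Wnt3*, *Lef1* and *Tcf7l2* rose in *Bdh2*-knockout ASCs, *Fzd7* fell, and *Wnt5b*, *Dkk1* and *Gsk3a* did not pass the test (values below). Of all tested members, with or without a match, 37.3% rose and 9.8% fell, and of all tested genes 21.0% rose and 20.8% fell. A match is a stretch of letters and not a measured binding site.

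The libraries held 18927748 to 28333541 counts on genes, at which 3 counts correspond to 0.109 to 0.155 normalized CPM (the count scaled to the library size, with TMM factors computed here), the smallest level taken as measurable, for counting error only. *Bdh2* was at 8.27 to 10.5 CPM in WT and 4.99 to 5.95 CPM in *Bdh2*-knockout ASCs. Primitive endoderm markers moved with the genotype: all 13 were higher, with a summed level of 370 to 410 CPM in WT and 902 to 995 CPM in *Bdh2*-knockout ASCs. Of 14 hepatocyte markers 10 were lower, against 20.8% of all tested genes, but the groups of all 14 overlapped. Their sum also overlapped and was uneven within each genotype. It was at 572, 360 and 72.4 CPM in replicates 1 to 3 of WT and 65.9, 179 and 48.7 CPM in those of *Bdh2*-knockout ASCs. Of 8 mesendoderm markers 6 could be tested, of which 4 rose and 1, *T*, fell, and of 10 pluripotency markers, all tested, 5 rose and 1 fell, where 21.0% of all tested genes rose and 20.8% fell, while their sums overlapped between genotypes (122 to 152 and 130 to 156 CPM, and 7101 to 7190 and 7165 to 7341 CPM, in WT and *Bdh2*-knockout ASCs). Of 7 fibroblast markers 5 could be tested and 1 fell, with sums of 26.6 to 32.5 and 21.6 to 27.2 CPM. Among the mesendoderm markers that rose, *Lhx1* and *Foxa2* had enough counts for the test only through the *Bdh2*-knockout libraries. No marker of these lists was at 0 in all 6 libraries. The part of these cell types in the changes below was not tested, apart from a fit with a hepatocyte covariate, and in bulk RNA more cells of a type and more RNA per cell cannot be told apart.

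Of the 55 members, 51 had enough counts to be tested. With edgeR's quasi-likelihood test and Benjamini-Hochberg adjustment over 16758 genes, 24 of the 51 (47.1%) had an adjusted p under 0.05, against 41.7% of all tested genes. Of these, 19 (37.3%) rose, against a background of 21.0%, and 5 (9.80%) fell, against 20.8%. The median log2 fold change of *Bdh2*-knockout over WT ASCs was 0.10 over the members and -0.01 over all tested genes. An adjusted p under 0.05 together with a log2 change of at least 0.5 in size was found in 7 members, *Wnt3*, *Wnt8a*, *Wnt11*, *Ror1*, *Frzb*, *Tcf7l1* and *Nkd1*, and in 15.4% of all tested genes. Of these, *Frzb* had enough counts for the test only through the *Bdh2*-knockout libraries. Normalized levels did not overlap between genotypes for 27 of the 51 tested members (52.9%), 18 above and 9 below WT, against 52.4% of all tested genes. The share of members called in either direction thus lay near that of all genes, with more increases and fewer decreases than the background. The split moved with the scaling: with library totals in place of TMM, which shifted the median of all genes by -0.06, 14 members (27.5%) rose and 9 (17.6%) fell, against 16.3% and 26.6% of all tested genes. With the hepatocyte covariate 15 members rose and 4 fell, against 15.7% and 14.7%.

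**Figure D1:**
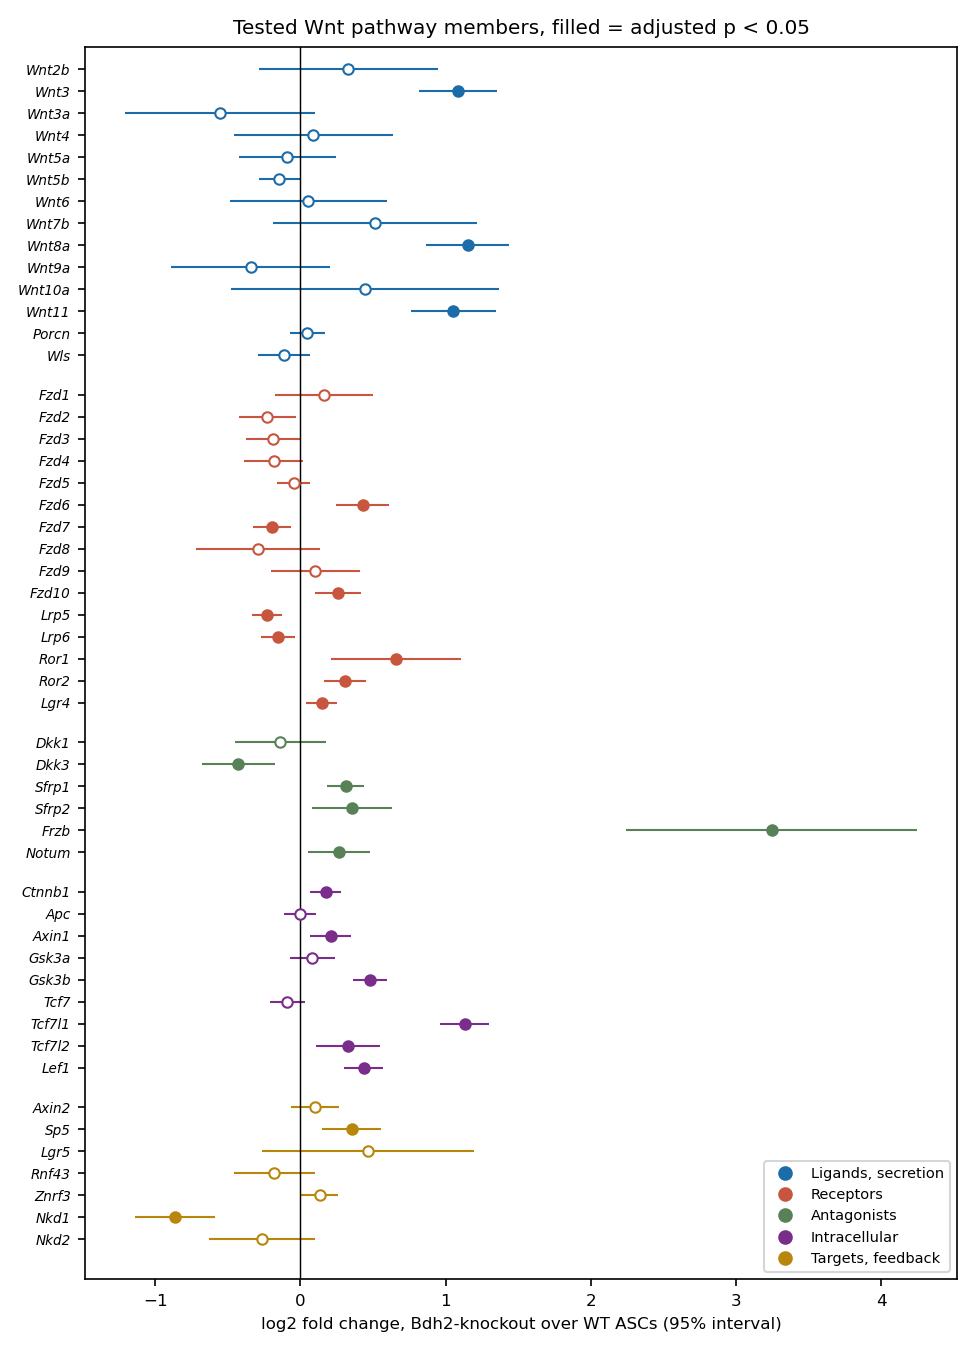
Log2 fold change of *Bdh2*-knockout over WT ASCs (horizontal axis) for the 51 tested members, by class (colors), with 95% intervals from the edgeR fit; filled points had an adjusted p under 0.05. Most points lie between -0.5 and 0.5, and *Wnt3*, *Wnt8a*, *Wnt11*, *Tcf7l1* and *Frzb* lie above 1.

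Among the ligands, 3 of the 12 that could be tested rose, *Wnt3*, *Wnt8a* and *Wnt11*, with log2 fold changes between 1.05 and 1.15, and 0 fell. Of all tested genes 21.0% rose, so the share of ligands that rose was near the background. *Wnt3* is a canonical ligand needed for the primitive streak. It was at 3.61, 3.62 and 3.28 CPM in replicates 1 to 3 of WT and at 7.26, 7.22 and 7.76 CPM in those of *Bdh2*-knockout ASCs. Every *Bdh2*-knockout library was above every WT library, and the rise was 1.08 on the log2 scale (95% interval 0.82 to 1.35, adjusted p = 2.33e-05). *Wnt8a*, a ligand of the posterior epiblast and primitive streak, was at 7.62, 5.50 and 6.09 CPM in WT and at 12.5, 16.4 and 13.6 CPM in *Bdh2*-knockout ASCs. The groups were again apart, with WT replicate 1 the nearest of the WT libraries to the other genotype. The log2 fold change was 1.15 (standard error 0.13, interval 0.87 to 1.44, adjusted p = 2.34e-05). *Wnt11*, which acts mostly through beta-catenin-independent signaling in cell movement, was at 3.30, 3.27 and 3.28 CPM in WT and at 7.59, 6.16 and 6.72 CPM in *Bdh2*-knockout ASCs. It rose by 1.05 (standard error 0.14, interval 0.76 to 1.35, adjusted p = 5.89e-05), and the WT libraries were almost level with each other. These 3 genes lie on different chromosomes of GRCm38, at chr11:103774150-103817957 for *Wnt3*, chr18:34542313-34548273 for *Wnt8a* and chr7:98835112-98855195 for *Wnt11*, all on the plus strand. Another ligand gene, *Wnt9b*, lies 24328 bases from *Wnt3* and had 1 to 3 counts per WT library and 4 to 8 per *Bdh2*-knockout library, too few to test.

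The other 9 tested ligands did not pass the test. *Wnt5b*, mostly a non-canonical ligand, came nearest, at a log2 fold change of -0.15 (adjusted p = 0.0880) and with all *Bdh2*-knockout libraries below all WT libraries. *Wnt3a*, the close relative of *Wnt3*, had -0.55 with an interval of -1.21 to 0.10. At its level of about 1 CPM, that interval held both no change and a decrease as large as the *Wnt3* increase. *Wnt2b* (0.33), *Wnt4* (0.09), *Wnt5a* (-0.09), *Wnt6* (0.05), *Wnt7b* (0.51), *Wnt9a* (-0.34) and *Wnt10a* (0.45) overlapped between genotypes. *Wnt1* and *Wnt10b* were too low to test. *Wnt1* had 2 counts in *Bdh2*-knockout replicate 1 and 0 in the other 5 libraries. *Wnt10b* had 7, 8 and 8 counts in WT and 6, 10 and 9 in *Bdh2*-knockout ASCs.

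The genes needed to make and export any Wnt ligand did not pass the test. *Porcn*, the acyltransferase that attaches the lipid, was at 45.9, 50.8 and 50.5 CPM in WT and at 51.2, 52.1 and 48.7 CPM in *Bdh2*-knockout ASCs. *Wls*, the carrier that brings the lipidated ligand to the cell surface, was at 18.2, 22.7 and 19.7 CPM in WT and at 19.1, 19.1 and 17.9 CPM in *Bdh2*-knockout ASCs. Both overlapped between genotypes, with log2 fold changes of 0.05 (interval -0.07 to 0.17, adjusted p = 0.533) and -0.11 (interval -0.29 to 0.07, adjusted p = 0.295). In 1 of the alternatives, library totals, the value for *Porcn* was -0.01.

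**Figure D2:**
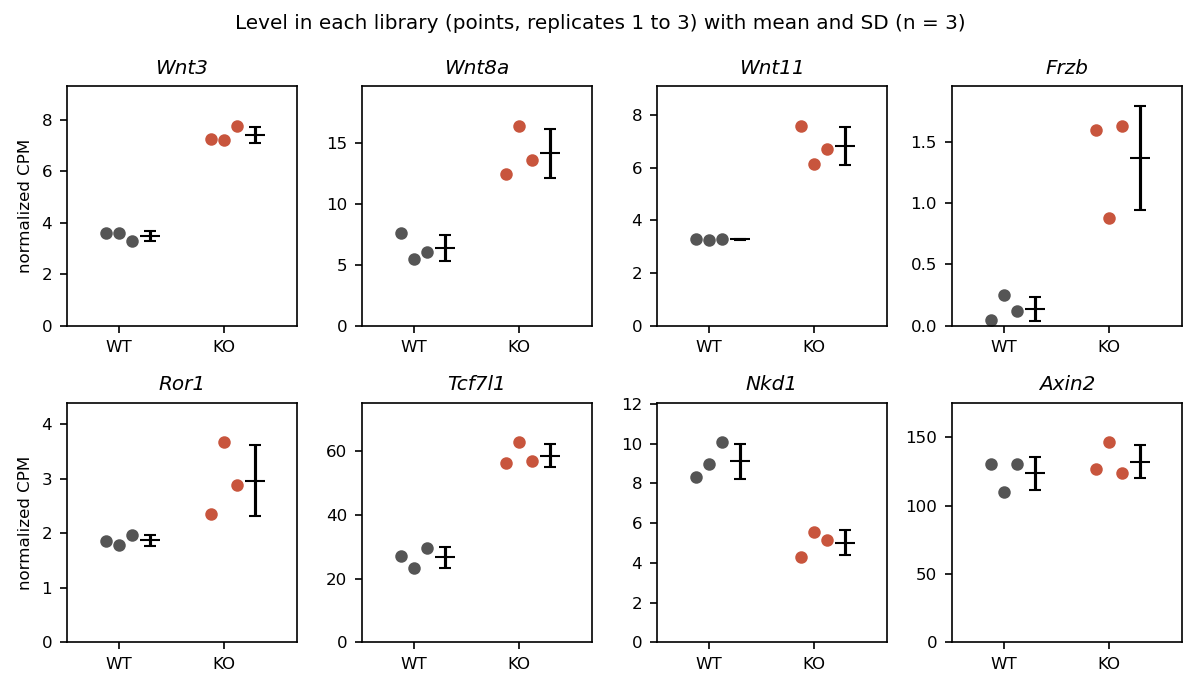
Normalized CPM (vertical axis, from 0) in each WT (gray) and *Bdh2*-knockout (red) library for 8 members, with the mean and SD of 3 libraries beside the points. In 7 panels the genotypes are apart, *Nkd1* being lower and the others higher in *Bdh2*-knockout ASCs, and in the *Axin2* panel they overlap.

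The make-up of the pool of 14 member ligands was described on a per-length scale (FPKM, normalized CPM per kilobase of the listed gene length), on which levels of different genes can be compared. Wnt ligand genes outside the members, such as *Wnt9b*, were left out of these shares and sums. In WT ASCs *Wnt5b* was the most abundant ligand, with 44.8% ± 1.19 (SD, n = 3) of the summed ligand FPKM, followed by *Wnt8a* with 21.5% ± 3.90. In *Bdh2*-knockout ASCs the order was the other way round, with 35.5% ± 3.76 for *Wnt8a* and 30.3% ± 0.839 for *Wnt5b*. *Wnt8a* was above *Wnt5b* in *Bdh2*-knockout replicates 1, 2 and 3, at 32.8%, 39.8% and 33.9% against 31.0%, 29.4% and 30.5%, so the order within replicate 1 rested on a small difference. *Wnt3* went from 6.66% ± 0.476 to 10.5% ± 0.547 and *Wnt11* from 4.64% ± 0.0918 to 7.24% ± 1.06. Summed over 14 ligands, the level was 17.1 ± 0.324 FPKM in WT and 22.9 ± 0.907 FPKM in *Bdh2*-knockout ASCs. A share also drops when other genes of the family rise, and the level of *Wnt5b* itself did not pass the test.

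**Figure D3:**
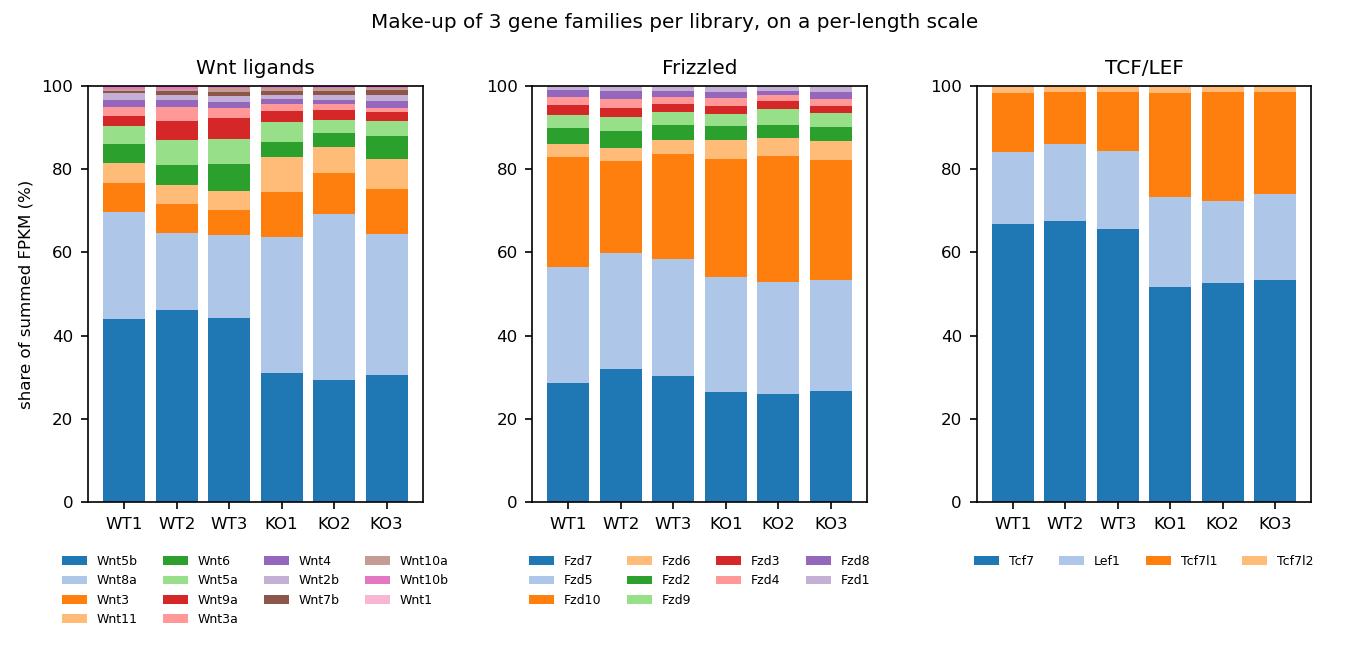
Share (%) of each gene in the summed FPKM of the member Wnt ligands, the Frizzled receptors and the TCF/LEF factors, 1 bar per library. In *Bdh2*-knockout libraries *Wnt8a*, *Wnt3*, *Wnt11* and *Tcf7l1* take a larger share than in any WT library, and the Frizzled bars differ less.

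All 15 receptors could be tested, and 5 rose and 3 fell (53.3% called, against 41.7% of all tested genes), with a median log2 fold change of -0.05. All but 1 of these changes were under 0.5 in size. Of the 10 Frizzled genes, *Fzd6* rose by 0.43 (standard error 0.08, adjusted p = 0.00135) and *Fzd10* by 0.26 (adjusted p = 0.0137), and *Fzd7* fell by 0.20 (adjusted p = 0.0194). FZD7 is the Frizzled best known for supporting mouse and human pluripotent cells. The log2 fold changes of the other 7 lay between -0.29 (*Fzd8*) and 0.16 (*Fzd1*), with *Fzd2* at -0.23 (adjusted p = 0.0593), *Fzd3* at -0.19 (adjusted p = 0.0911), *Fzd4* at -0.18, *Fzd5* at -0.05 and *Fzd9* at 0.10. *Fzd7*, *Fzd5* and *Fzd10* made up most of the family per length in both genotypes. Their shares of the summed FPKM were 30.3% ± 1.64, 28.0% ± 0.141 and 24.5% ± 2.28 in WT, and 26.4% ± 0.308, 27.1% ± 0.546 and 29.2% ± 1.17 in *Bdh2*-knockout ASCs (SD, n = 3). *Fzd7* was thus first in WT and *Fzd10* first in *Bdh2*-knockout ASCs, while the sum over the family was 74.7 ± 2.66 and 74.9 ± 3.48 FPKM.

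Of the co-receptors of the canonical pathway, *Lrp5* fell by 0.23 (standard error 0.05, adjusted p = 0.00203). *Lrp6* fell by 0.15 (standard error 0.05, adjusted p = 0.0372), a call that held in only 4 of 13 alternatives. *Ror1* and *Ror2*, kinase-like receptors of non-canonical ligands, rose, whereas *Ryk* (-0.07) and *Ptk7* (0.12), receptors of that kind outside the members, did not pass the test. *Ror1* was at 1.85, 1.78 and 1.98 CPM in WT and at 2.36, 3.67 and 2.88 CPM in *Bdh2*-knockout ASCs, and the groups did not overlap, although the *Bdh2*-knockout libraries were spread widely. The change was 0.66 (standard error 0.21, interval 0.21 to 1.11, adjusted p = 0.0212). *Ror2*, expressed at a higher level per length (12.6 against 0.325 FPKM in WT), rose by 0.31 (standard error 0.07, adjusted p = 0.00292). *Lgr4*, a receptor for R-spondins, which strengthen Wnt signaling at the membrane, rose by 0.15 (adjusted p = 0.0307). Calls for 5 of these 8 receptors were lost when single libraries were left out. *Ror1* had 0.65, 0.63 and 0.48 without WT replicate 1, WT replicate 2 or *Bdh2*-knockout replicate 2, *Fzd10* had 0.19 without WT replicate 2 or *Bdh2*-knockout replicate 2, *Fzd7* had -0.16, -0.17 and -0.18 without WT replicate 2 or *Bdh2*-knockout replicates 1 or 3, *Lgr4* had 0.12 to 0.17 without WT replicate 1 or any 1 *Bdh2*-knockout library, and *Lrp6* had -0.17 to -0.11 without any library but WT replicate 3. *Fzd3* passed at -0.25 without WT replicate 3. The call of *Ror1* was also lost with DESeq2 (adjusted p = 0.0524), that of *Lrp6* with DESeq2 (adjusted p = 0.0734), without a filter (0.0792) and with the hepatocyte covariate (0.260), and that of *Lgr4* with library totals (0.159) and the hepatocyte covariate (0.157). With the replicate block, *Lrp6* (adjusted p = 0.0535) and *Lgr4* (0.0630) lost their calls too.

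Secreted antagonists bind Wnt ligands or their receptors outside the cell. Of 8, 6 could be tested, of which 4 rose and 1 fell (83.3% of these 6 called, against 41.7% of all tested genes). *Frzb*, a secreted Frizzled-related protein that binds ligands, had the largest fold change of all members and one of the lowest levels. Its raw counts were 1, 5 and 3 in WT ASC replicates 1 to 3 and 44, 24 and 39 in *Bdh2*-knockout ASC replicates 1 to 3, or 0.0515, 0.248 and 0.119 CPM and 1.60, 0.880 and 1.63 CPM. WT replicates 1 and 3 were at or below the level of 3 counts, whereas all *Bdh2*-knockout libraries were above every WT library. The log2 fold change was 3.25 (standard error 0.46, adjusted p = 1.33e-04), with an interval of 2.25 to 4.25, and its size rests on the few WT counts. *Frzb* passed the filter on low counts only through the *Bdh2*-knockout libraries, where it was high. Its place among the tested and called antagonists therefore depended on its level there. The gene lies on the minus strand at chr2:80411970-80447625.

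The other changes among antagonists were small. *Sfrp1* rose by 0.31 (standard error 0.06, adjusted p = 0.00112), and *Sfrp2* rose by 0.36 (standard error 0.13, adjusted p = 0.0383). Both encode relatives of *Frzb*. Another relative that was not among the members, *Sfrp4*, fell by 0.87 (adjusted p = 4.55e-04), as did *Kremen2*, a receptor for Dickkopf proteins, by 0.66 (adjusted p = 0.0118). *Notum*, the highest of the class per length (9.06 FPKM in WT), encodes an enzyme that removes the lipid from Wnt proteins, is itself induced by the pathway, and rose by 0.26 (standard error 0.10, adjusted p = 0.0442). Its groups overlapped, as did those of *Sfrp2*. Exons of other genes, among them *Notumos*, cover 38.1% of the exon bases of *Notum*, and since the library kit does not mark strand, their reads cannot be told apart. *Notumos* had 93, 82 and 102 counts in WT and 117, 150 and 140 in *Bdh2*-knockout ASCs. *Dkk3*, a divergent member of the Dickkopf family, fell by 0.43 (standard error 0.12, adjusted p = 0.0100), and *Dkk1*, the Dickkopf that blocks LRP5 and LRP6, had -0.14 with overlapping groups. *Sfrp5* (8, 5 and 4 counts in WT, 8, 13 and 8 in *Bdh2*-knockout ASCs) and *Wif1* (12, 5 and 11 against 6, 4 and 4) were too low to test. The calls of *Sfrp2* and *Notum* were lost without WT replicate 3 (0.33 and 0.27) and without *Bdh2*-knockout replicates 2 (0.36 and 0.18) or 3 (0.30 and 0.29), that of *Sfrp2* also without WT replicate 1 (0.27), that of *Notum* without WT replicate 2 (0.17), and that of *Dkk3* without *Bdh2*-knockout replicate 1 (-0.36). With DESeq2 the adjusted p was 0.0506 for *Dkk3* and 0.0741 for *Sfrp2*, and with library totals it was 0.0754 for *Sfrp2* and 0.110 for *Notum*. The call of *Sfrp2* was also lost with the hepatocyte covariate (adjusted p = 0.119) and that of *Notum* with a mean count of at least 50 (adjusted p = 0.0502). With the replicate block, *Notum* lost its call too (adjusted p = 0.0530).

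Of the 9 intracellular components, 6 rose and 0 fell (66.7% called, against 41.7% of all tested genes, of which 21.0% rose and 20.8% fell). *Ctnnb1*, which encodes beta-catenin, was at 609, 550 and 581 CPM in WT and at 642, 652 and 669 CPM in *Bdh2*-knockout ASCs. The groups did not overlap, but the rise was small, at 0.17 (standard error 0.05, adjusted p = 0.0118). *Gsk3b*, one of the kinases that CHIR99021 inhibits, was at 58.0, 62.0 and 63.0 CPM in WT and at 87.8, 86.1 and 81.3 CPM in *Bdh2*-knockout ASCs. It rose by 0.48 (standard error 0.05, interval 0.36 to 0.60, adjusted p = 2.32e-05). *Gsk3b* lies at chr16:38089001-38246084, and chromosome 16 stood apart from the other chromosomes with members: the median log2 fold change of its 494 tested genes was 0.19, and 72.5% of them were above 0, whereas medians of the other 18 chromosomes lay between -0.07 and 0.02. Among the 58 tested genes that start within 5 Mb of *Gsk3b* the median was 0.09. The part of this shift in the *Gsk3b* value was not tested. *Gsk3a*, on another chromosome, had 0.08 (interval -0.07 to 0.23) with overlapping groups. Of the scaffold genes of the destruction complex, *Axin1* rose by 0.21 (standard error 0.06, adjusted p = 0.0204), and *Apc* had -0.01 (interval -0.12 to 0.11).

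The TCF/LEF factors moved unequally. *Tcf7l1* was at 27.0, 23.2 and 29.6 CPM in WT and at 56.2, 62.6 and 56.7 CPM in *Bdh2*-knockout ASCs. All *Bdh2*-knockout libraries were far above the highest WT library. The log2 fold change was 1.13 (standard error 0.08, interval 0.96 to 1.30), and the adjusted p of 3.82e-07 was the smallest of all members. The gene lies on the minus strand at chr6:72626378-72789254. *Lef1* was at 73.9, 77.4 and 87.5 CPM in WT and at 110, 106 and 108 CPM in *Bdh2*-knockout ASCs, a rise of 0.44 (standard error 0.06, interval 0.30 to 0.57, adjusted p = 1.35e-04) with no overlap. *Tcf7l2*, the lowest of the family, rose by 0.33 (standard error 0.10, adjusted p = 0.0199). *Tcf7* was at 85.0, 84.5 and 91.6 CPM in WT and at 78.0, 84.6 and 82.9 CPM in *Bdh2*-knockout ASCs, and its value of -0.09 (interval -0.21 to 0.03, adjusted p = 0.210) did not pass. Per length, *Tcf7* made up 66.7% ± 0.953 (SD, n = 3) of the family in WT and 52.6% ± 0.793 in *Bdh2*-knockout ASCs, *Tcf7l1* 13.6% ± 1.04 and 25.1% ± 0.869, and *Lef1* 18.2% ± 0.744 and 20.7% ± 1.03. *Tcf7l1* was thus below *Lef1* in every WT library and above it in every *Bdh2*-knockout library. The sum of the family was 49.7 ± 2.97 FPKM in WT and 59.3 ± 1.86 FPKM in *Bdh2*-knockout ASCs. Calls were lost for *Axin1* without WT replicates 1 or 2 or *Bdh2*-knockout replicate 2 (0.18, 0.17 and 0.15), for *Ctnnb1* without *Bdh2*-knockout replicate 3 (0.17), and for *Tcf7l2* without WT replicate 2 or *Bdh2*-knockout replicates 1 or 2 (0.31, 0.33 and 0.32). They were also lost with library totals for *Ctnnb1* and *Axin1* (adjusted p = 0.0752 and 0.0718), with the hepatocyte covariate for *Axin1* and *Tcf7l2* (adjusted p = 0.0771 and 0.0673), and with DESeq2 for *Tcf7l2* (adjusted p = 0.0791).

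Of the 7 targets and feedback regulators, 1 rose, 1 fell and 5 did not pass the test (28.6% called, below the 41.7% of all tested genes). *Axin2*, the most used readout of beta-catenin activity and itself a negative regulator, was at 131, 110 and 130 CPM in WT and at 127, 146 and 124 CPM in *Bdh2*-knockout ASCs. The groups overlapped, and the log2 fold change was 0.10 (interval -0.07 to 0.26, adjusted p = 0.327). *Sp5*, a zinc finger gene induced directly by beta-catenin, was at 55.4, 45.2 and 59.6 CPM in WT and at 62.2, 76.5 and 66.3 CPM in *Bdh2*-knockout ASCs. It rose by 0.35 (standard error 0.09, interval 0.15 to 0.55, adjusted p = 0.00868), with WT replicate 3 close to *Bdh2*-knockout replicate 1. *Nkd1*, whose product binds Dishevelled and dampens the signal, was at 8.29, 8.97 and 10.1 CPM in WT and at 4.32, 5.57 and 5.17 CPM in *Bdh2*-knockout ASCs. It fell by 0.86 (standard error 0.13, adjusted p = 1.68e-04), with an interval of -1.14 to -0.59, and every *Bdh2*-knockout library was below every WT library. The gene lies on the plus strand at chr8:88521354-88594884. Its relative *Nkd2* had -0.27 (adjusted p = 0.227) with groups that did not overlap, and *Rnf43* and *Znrf3*, ubiquitin ligases that remove Frizzled receptors from the surface, had -0.18 and 0.13. The groups of *Znrf3* did not overlap either, with all *Bdh2*-knockout libraries above WT (adjusted p = 0.0836). *Lgr5*, a target that encodes an R-spondin receptor, was below 1 CPM in both genotypes on average, with 0.46 and an interval of -0.27 to 1.19. *Axin2*, *Sp5* and *Nkd1* are all induced by beta-catenin in many tissues, and here they did not pass, rose and fell, respectively.

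**Figure D4:**
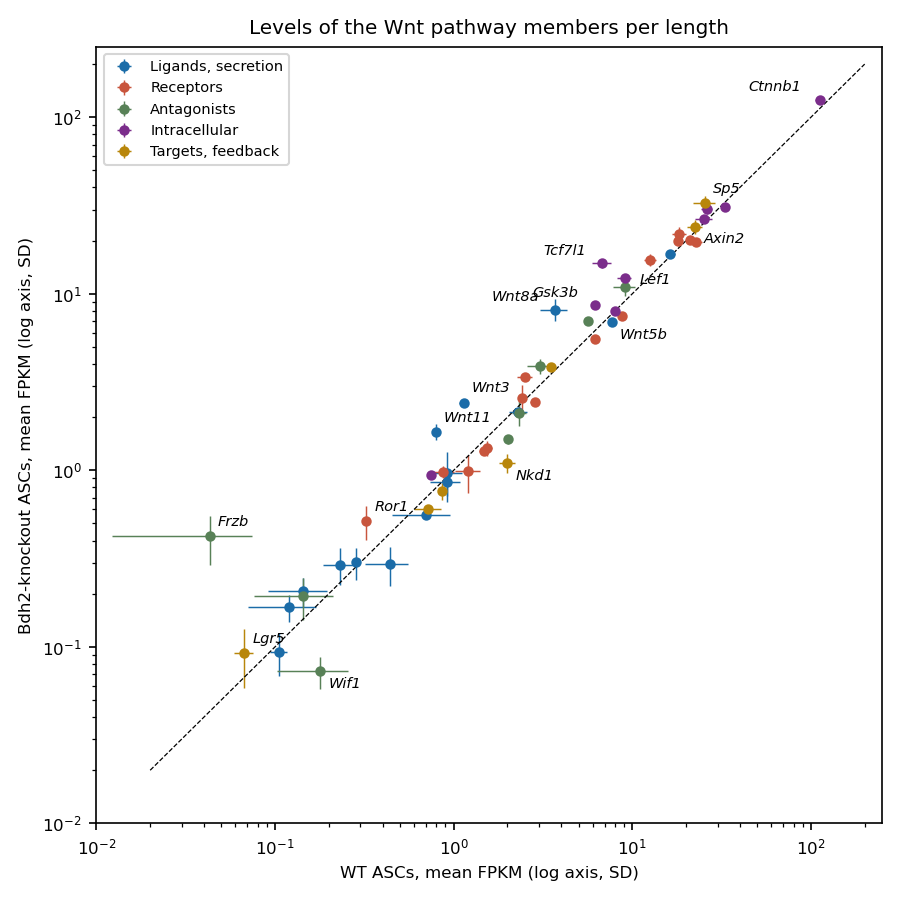
Mean FPKM in WT (horizontal) and *Bdh2*-knockout ASCs (vertical) of the 54 members with counts in both genotypes, on log axes, with SD bars (n = 3) and a dashed line of equal level. *Ctnnb1* is the highest member at 112 and 126 FPKM, *Frzb* lies farthest from the line, and most members lie on or near it.

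The levels of the members spanned a wide range. By mean FPKM, *Ctnnb1* (111.7 ± 5.66 in WT, 126.0 ± 2.63 in *Bdh2*-knockout ASCs, SD, n = 3) was far above *Tcf7* (33.2 ± 1.51 and 31.2 ± 1.31), which was followed in WT by *Axin1*, *Sp5*, *Gsk3a*, *Fzd7* and *Axin2* between 26.2 and 22.4 FPKM. Neighbours among these 5 genes differed by less than the larger of their SDs in WT. *Tcf7l1* moved from rank 18 to rank 13 and *Frzb* from rank 54 to rank 45 of the 55. The most abundant ligand, at 7.66 FPKM in WT (*Wnt5b*) and 8.13 FPKM in *Bdh2*-knockout ASCs (*Wnt8a*), was below *Porcn* (16.4 and 16.9 FPKM). Spread between libraries was larger for the ligands and secretion factors, with a median coefficient of variation of 18.2% in WT and 15.4% in *Bdh2*-knockout ASCs, than for the receptors (5.44% and 4.68%).

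Other genes of the pathway were taken from a list of 57, of which 49 could be tested. Of these, 11 rose and 9 fell (40.8% called, median 0.06), near the 41.7% of all tested genes. *Tle4*, a Groucho-family co-repressor that TCF/LEF proteins recruit, went from 150.4 ± 12.0 to 287.4 ± 4.35 CPM (SD, n = 3), which is an increase of 0.93 on the log2 scale (adjusted p = 1.96e-07, standard error 0.06). *Prickle1*, a planar cell polarity gene, went from 6.82 ± 0.553 to 19.4 ± 2.44 CPM, a change of 1.51 (standard error 0.11, adjusted p = 4.74e-07). *Gpc4*, a glypican, and *Dvl3*, a Dishevelled, each rose by 0.43. *Dvl3* lies on chromosome 16, whose tested genes had a median of 0.19, and the part of that shift in its value was not tested. In the other direction, *Celsr3*, a planar cell polarity cadherin, fell by 0.77 (standard error 0.08, adjusted p = 6.48e-06), *Gpc3* by 0.48, the casein kinase gene *Csnk1e* by 0.45 and *Amer1*, which brings APC to the membrane, by 0.41. The planar polarity, glypican and Dishevelled groups each had members that rose and members that fell.

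A list of 25 other genes described as Wnt targets in stem cells or embryos was also examined, and all could be tested. Of these, 11 rose and 3 fell (56.0% called, against 41.7% of all tested genes, with a median of 0.24 against -0.01). The increases with the smallest adjusted p were those of *Mycn* (0.86, standard error 0.07, adjusted p = 1.12e-06), *Id2* (0.91, standard error 0.08, adjusted p = 1.74e-06), *Sall4* (0.66, standard error 0.06, adjusted p = 2.78e-06) and *Myc* (0.87, standard error 0.08, adjusted p = 3.12e-06). These genes have many other regulators, and *Sall4* is also on the pluripotency list. *T*, the primitive streak gene induced by Wnt signaling, fell by 0.38 (standard error 0.10, adjusted p = 0.00726), although its groups overlapped, *Jun* fell by 0.47 and *Ascl2* by 0.30. The other mesendoderm markers that passed the test rose, *Eomes* by 0.88, *Evx1* by 0.77, *Lhx1* by 1.67 and *Foxa2* by 2.66, the last pair from mean levels of 0.244 and 0.305 CPM in WT. *Lhx1* and *Foxa2* passed the filter on low counts only through the *Bdh2*-knockout libraries, whereas *Gsc* and *Mesp1*, low in both genotypes, could not be tested.

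**Figure D5:**
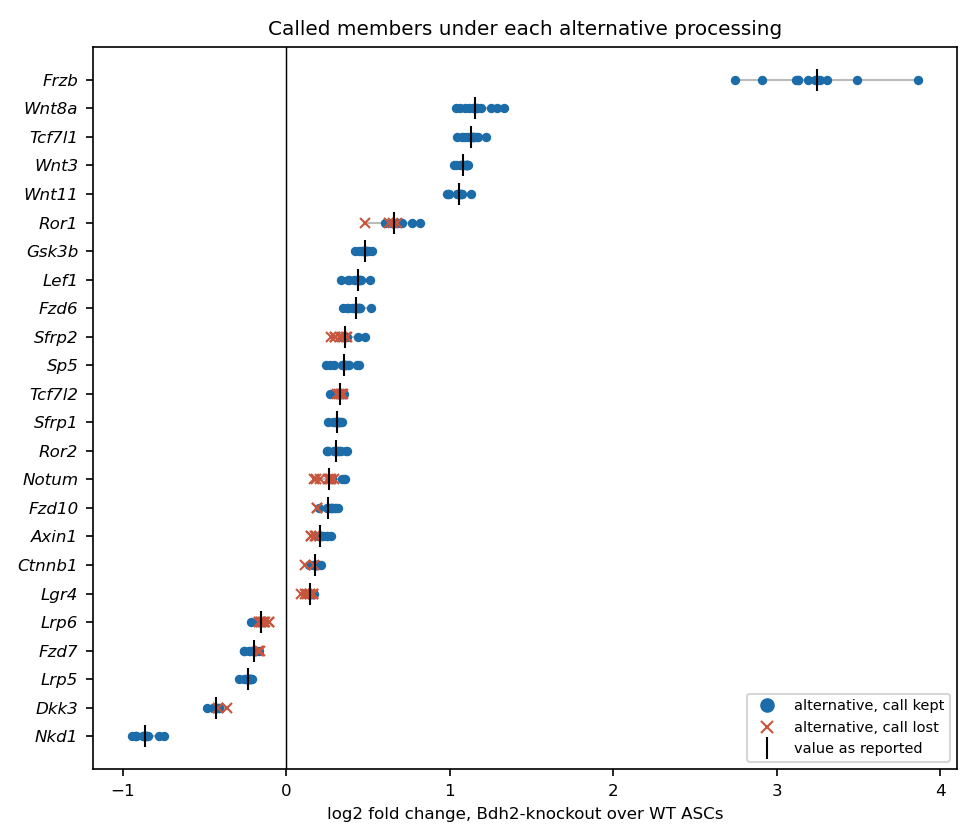
Log2 fold change (horizontal axis) of the 24 called members in the reported fit (black bars) and in the alternatives (blue dots where the call was kept, red crosses where it was lost). Positive genes stay above 0 and negative genes below 0 throughout, and red crosses occur for 11 members, all with values within 0.7 of 0.

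The calls of 13 members, *Wnt3*, *Wnt8a*, *Wnt11*, *Fzd6*, *Lrp5*, *Ror2*, *Sfrp1*, *Frzb*, *Gsk3b*, *Tcf7l1*, *Lef1*, *Sp5* and *Nkd1*, held in each of 13 alternatives in which they could be tested. For the largest changes the log2 fold changes over the alternatives ran from 1.03 to 1.11 for *Wnt3*, 1.04 to 1.33 for *Wnt8a*, 0.98 to 1.13 for *Wnt11*, 1.04 to 1.22 for *Tcf7l1*, 2.74 to 3.86 for *Frzb* and -0.94 to -0.75 for *Nkd1*. These alternatives include the fit with the hepatocyte covariate. Besides *Notum*, exons of other genes cover 28.3% of the exon bases of *Gsk3a*, 17.8% of *Fzd5*, 16.1% of *Sfrp2*, 15.1% of *Ctnnb1*, 13.7% of *Lef1* and 8.80% of *Wnt11*. Their partners *9130221H12Rik* (*Gsk3a*, 24 to 53 counts), *Gm38058* (*Fzd5*, 0 to 5 counts), *Gm26771* (*Sfrp2*, 0 to 1 counts), *Ulk4* (*Ctnnb1*, 48 to 71 counts), *Gm43352* (*Lef1*, 18 to 38 counts) and *Gm8398* (*Wnt11*, 0 counts) had few counts.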

How the data were processed

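Total RNA was made into libraries with an Illumina TruSeq RNA kit and sequenced on Illumina HiSeq. The authors trimmed adaptors, dropped poor reads, aligned to GRCm38 with HISAT2 2.0.5, ran FeatureCounts, and deposited raw read counts for 54715 genes with gene lengths and positions. The annotation release, the strand setting and the treatment of reads with several matches are not given in the sources used here. All 55 identifiers are in GENCODE M21, which gave exons.

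Counts were fitted with edgeR 4.0.16 in R 4.3.3 (TMM, filterByExpr defaults, glmQLFit and glmQLFTest, genotype only, Benjamini-Hochberg over 16758 genes, threshold 0.05), after a test on simulated data. Log2 fold changes are from this fit. FPKM was computed from normalized CPM and the listed lengths. Alternatives were DESeq2 1.42.0 (the study's tool), median-of-ratios factors, library totals, 2 filters, a replicate block, a hepatocyte covariate and leaving out each library.

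Members, lists and tests were chosen with earlier results of these data known. Values per library are given for members with an adjusted p under 0.05 and a log2 change of at least 0.5, and for *Ctnnb1*, *Gsk3b*, *Axin2*, *Lef1*, *Tcf7*, *Tcf7l1*, *Sp5*, *Porcn* and *Wls*; of the lists of other genes, at most the 4 smallest adjusted p per direction are named. *Notumos* and the other overlapping genes, *Wnt9b*, *Sfrp4*, *Kremen2*, *Ryk*, *Ptk7*, the mesendoderm markers named beside *T*, and the chromosome medians were added after values were seen.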

Additional observations from a re-analysis of the deposited data

How the results depend on the processing

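Of 655 values of single members under 13 alternatives, 579 kept direction and side of the threshold, 53 lost a call, 6 gained one and 17 changed sign, and 0 of the 24 called members changed sign. Members that rose numbered 19 in the reported fit, 16 with DESeq2 and 12 to 17 when a library was left out. Members that fell numbered 5, but 3 with DESeq2, 9 with library totals and 2 to 6 when a library was left out. The counts over all tested genes, 3518 higher and 3478 lower in the reported fit, moved too, to 3187 and 2512 with DESeq2 (17.8% and 14.0% of 17937 genes, 54 of them members) and to 2928 to 3765 and 2624 to 3644 when a library was left out. With library totals, *Wnt5b* (-0.20), *Fzd2* (-0.29), *Fzd3* (-0.25) and *Tcf7* (-0.15) also passed. Called receptors, 8 in the reported fit, numbered 4 to 9 when a library was left out. Called antagonists, 5 in the reported fit, numbered 3 with DESeq2, with library totals and with a mean count of at least 50, and 3 to 5 when a library was left out, and the filter of 50 left *Frzb* out. The median over targets was -0.05 under that filter, which left *Lgr5* out. Called ligands and targets stayed at 3 to 4 and at 2 under every alternative. Without WT replicate 1, *Wnt9a* passed at -0.60. Where no filter accounts for a change, the cause was not tested.

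Changes of sign were all among members that did not pass. *Apc* was at 0.00801 with DESeq2, 0.0105 with no filter and 0.000787 with the hepatocyte covariate, *Wnt6* at -0.0028 with library totals and -0.30 with the hepatocyte covariate, *Porcn* at -0.0118 with library totals, and *Wnt4* and *Gsk3a* at -0.0496 and -0.0275 with the hepatocyte covariate. When a library was left out, the values ran from -0.0374 to 0.0311 for *Apc*, -0.21 to 0.25 for *Wnt6*, -0.24 to 0.0173 for *Wnt5a*, -0.0449 to 0.22 for *Fzd9* and -0.0585 to 0.23 for *Wnt4*.

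Labels give both genotypes replicate numbers 1 to 3. Deviations from the group means correlated at -0.154, 0.0995 and 0.245 for numbers 1, 2 and 3. WT replicates 2 and 3 correlated best with their own number, and WT replicate 1 with *Bdh2*-knockout replicate 2 (0.312). Among *Bdh2*-knockout libraries only replicate 3 correlated best with its own number. So few values cannot show whether libraries of the same number shared a culture or batch, and the labels do not say. With the replicate block 17 members rose and 4 fell, 21 of the 24 calls were kept, and *Lrp6*, *Lgr4* and *Notum* lost theirs. Low counts kept *Wnt1*, *Wnt10b*, *Sfrp5* and *Wif1*, all ligands or antagonists, from being tested. Intervals of *Wnt2b*, *Wnt3a*, *Wnt4*, *Wnt6*, *Wnt7b*, *Wnt9a*, *Wnt10a*, *Frzb* and *Lgr5* span more than 1 log2 unit. The parts of depth and of other spread between libraries in these intervals were not tested.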
